A study of Mus musculus with 21 samples.

Results

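Nicotinamide adenine dinucleotide (NAD) and its phosphate (NADP) carry electrons for catabolism, biosynthesis and antioxidant defence. The genes described here are the 10 that encode the core enzymes which make NAD from vitamin precursors, phosphorylate it, or pass hydride between the mitochondrial NAD and NADP pools: Nampt, Naprt, Nadsyn1, Nmrk1, Nmnat1, Nmnat2, Nmnat3, Nadk, Nadk2 and Nnt. They were chosen by gene symbol, with earlier results of these data known. Each had 1 row in both count tables, so all 10 of 10 were found among 40838 genes, and all 10 passed the filter on low counts in both tables.

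The samples were mouse embryonic stem cells (ESCs), cultured for 48 h in medium with 0.2 mM pyruvate and 10% dialyzed serum, in 21 poly(A) RNA-seq libraries of 8 groups. In one table were cells that carried a vector alone (3 libraries) and cells that carried LbNOX (3 libraries), both in SL medium. LbNOX is a bacterial enzyme that oxidizes NADH with oxygen and forms water. The other table held a line labelled chr8A and 2 clones labelled SLC16A1, each with 3 libraries in SL and 2 in SL2i. The labels name culture with leukemia inhibitory factor (LIF) in serum, alone or with inhibitors of GSK3B and MEK (2i), and SL and SL2i are read here as these 2 conditions. Slc16a1 encodes MCT1, a plasma membrane carrier of lactate and pyruvate. The labels do not say how the clones were altered, what chr8A denotes, or which mouse strain the cells came from. Each clone is 1 line, and the libraries of a group are not said to be separate cultures, so the p-values speak of the scatter among these libraries alone, and that scatter can be technical.

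Libraries of vector and LbNOX cells summed to between 16521594 and 30008895 counts, the other SL libraries to between 15802072 and 30145771 and those in SL2i to between 9784408 and 10908368, so medium and depth cannot be told apart in these libraries. Slc16a1, the gene named in the clone labels, stood at 198 ± 2.99 CPM (counts scaled to library size) in chr8A, 171 ± 10.4 in clone 1 and 93.6 ± 2.65 in clone 2 in SL (mean ± SD, n = 3 each). It was lower in both clones in SL (adjusted p = 2.7e-07 and 9.04e-50) and in SL2i, and was not absent from any library. All 10 ESC markers were detected in every group. In the LbNOX table, vector replicate 2 and LbNOX replicate 3 lay at -22.3 and -22.4 on the first principal component, against 8.23 to 13.7 for the other 4 libraries.

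Mammalian cells reach NAD by several entry routes. Nampt converts nicotinamide, the product of NAD-consuming enzymes, to nicotinamide mononucleotide and is the rate-limiting step of the salvage route. Naprt starts the route from nicotinic acid, which ends with the NAD synthetase Nadsyn1, an enzyme that also closes the route from tryptophan. Nmrk1 phosphorylates nicotinamide riboside. All routes meet at the Nmnat enzymes, which join the mononucleotide to an adenylyl group, and of which Nmnat1 is nuclear, Nmnat2 is bound to Golgi and vesicle membranes and Nmnat3 is mitochondrial. Nadk in the cytosol and Nadk2 in mitochondria phosphorylate NAD to NADP, and Nnt in the inner mitochondrial membrane uses the proton gradient to reduce NADP with NADH.

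Promoter sequences of RefSeq (build GRCm38.p6, 300 bases around a transcript start, most of them upstream) were matched for 7 of the 10 genes. The 3 below belong to the genes among these 7 that passed the test between media in the same direction in all 3 lines: Nmrk1, which rose, and Nampt and Nmnat1, which fell. Capitals mark matches on either strand to the motifs searched. These were the GC box, read by factors of the SP family, with the letters GGGCGG, and the box of the NF-Y complex with the letters CCAAT. The core motif of ETS factors was searched as CCGGAA, the E-box of the MYC family as CACGTG, and the cyclic AMP response element (CRE) as TGACGTCA. The motif of TCF and LEF factors was searched as CTTTGAA, and that of the estrogen-related receptors (ERR) as TCAAGGTCA. Nmrk1 at chr19:18631766-18632065 (plus strand) held 1 CCAAT match, at position -174 from the start. Nampt at chr12:32820085-32820384 (plus strand) held 5 GC boxes, and Nmnat1 (the first of its 2 start sites) at chr4:149485161-149485460 (minus strand) held 1 GC box, 1 ETS match and 1 CCAAT match. No matches overlapped each other.
Nmrk1: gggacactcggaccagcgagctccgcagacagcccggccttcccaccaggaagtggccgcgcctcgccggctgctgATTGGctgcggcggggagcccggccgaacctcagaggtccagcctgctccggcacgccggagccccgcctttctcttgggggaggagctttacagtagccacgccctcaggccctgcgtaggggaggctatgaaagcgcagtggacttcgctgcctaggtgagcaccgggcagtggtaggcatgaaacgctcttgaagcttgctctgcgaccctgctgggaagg
Nampt: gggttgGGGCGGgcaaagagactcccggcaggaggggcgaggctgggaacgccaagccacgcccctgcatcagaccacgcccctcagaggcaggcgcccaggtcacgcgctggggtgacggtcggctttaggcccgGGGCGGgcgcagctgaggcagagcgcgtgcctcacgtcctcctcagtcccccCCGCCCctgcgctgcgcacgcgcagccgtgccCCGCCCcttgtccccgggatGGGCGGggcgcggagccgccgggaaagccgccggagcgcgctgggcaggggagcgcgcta
Nmnat1: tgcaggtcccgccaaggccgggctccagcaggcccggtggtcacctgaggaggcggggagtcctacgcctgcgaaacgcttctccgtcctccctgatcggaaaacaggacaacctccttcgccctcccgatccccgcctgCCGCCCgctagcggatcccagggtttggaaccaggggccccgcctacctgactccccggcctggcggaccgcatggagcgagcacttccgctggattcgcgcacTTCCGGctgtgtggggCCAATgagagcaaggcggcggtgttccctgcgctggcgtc
Among 32851 promoters of the same length, 35.7% held a GC box, 37.4% CCAAT and 14.9% CCGGAA. The other motifs were in 7.15% (E-box), 5.14% (TCF/LEF), 1.79% (CRE) and 0.423% (ERR) of promoters and in none of these 3. GC content was 67.3%, 76.3% and 69.0% for Nmrk1, Nampt and Nmnat1. A match describes letters in this window and is not a measured binding site.

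Between genes, levels can be compared only per length, as CPM divided by gene length in kilobases (RPKM). In chr8A in SL the order ran from Nampt at 57.9 ± 0.187 RPKM, through Nadk at 39.5 ± 1.12, Naprt at 25.5 ± 0.683, Nadk2 at 18.4 ± 0.219 and Nnt at 14.3 ± 0.367, to the rest at under 7 RPKM. These were Nmnat2 at 6.17 ± 0.216, Nmnat1 at 5.18 ± 0.458, Nmrk1 at 4.19 ± 0.169, Nadsyn1 at 1.90 ± 0.166 and Nmnat3 at 0.235 ± 0.0979 (mean ± SD, n = 3). No pair of neighbours in this order overlapped between libraries. Nampt and Nadk held ranks 1 and 2 and Nmnat3 held rank 10 in all 8 groups. Of the 3 Nmnat genes, Nmnat1 and Nmnat2 were within 1.5-fold of each other in SL in the chr8A table by RPKM ratio (Nmnat2 to Nmnat1 1.198 ± 0.145 in chr8A), while Nmnat3 had only 57 reads in the 3 chr8A libraries together.

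The order differed in SL2i. Naprt, at rank 3 in every SL group, was at rank 9 in chr8A at 2.66 ± 0.142 RPKM and at rank 8 in both clones (n = 2 each). Its SL2i libraries overlapped those of Nadsyn1 in chr8A and clone 2 and those of Nmnat1 in clone 1, so these ranks are not exact. Nmrk1, at rank 8 in the SL groups of the same table, was at rank 4 in all 3 lines, at 10.6 ± 1.68 RPKM in chr8A, where its libraries overlapped those of Nnt. In vector and LbNOX cells, also in SL but normalized in another table, Nmrk1 was at rank 6 and overlapped Nmnat2. Levels in the 2 tables were normalized separately and were not tested against each other.

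**Figure D1:**
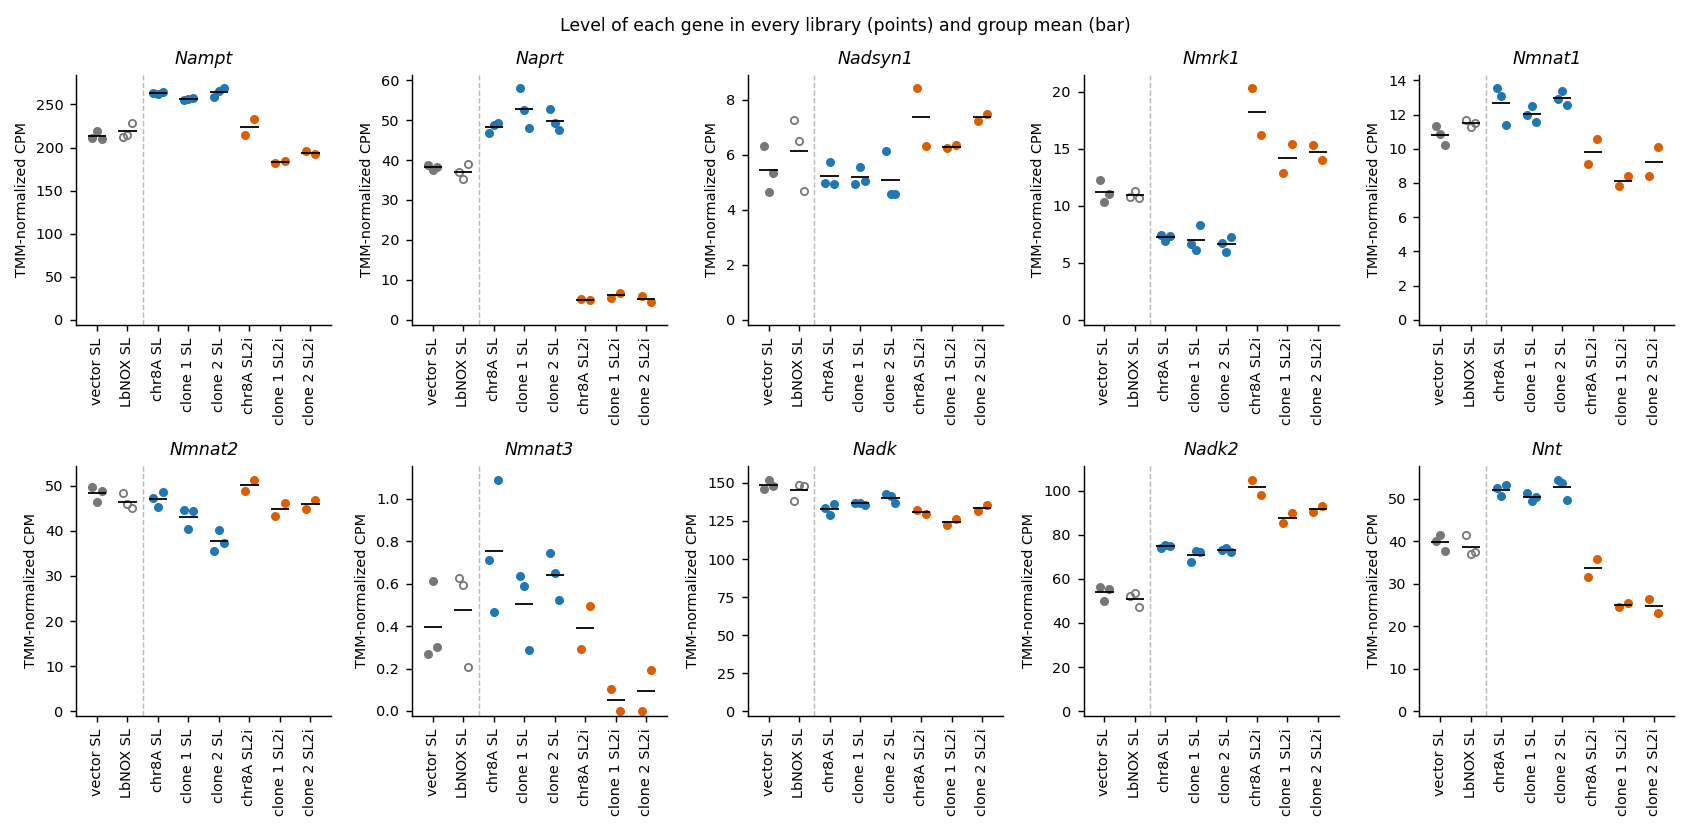
Level of each of the 10 genes as TMM-normalized CPM on a linear axis, with 1 point per library and a bar at the group mean; the dashed line separates the 2 tables, grey marks vector (filled) and LbNOX (open), blue SL and orange SL2i. The Naprt points in SL2i lie at 4.51 to 6.73 CPM, far under all SL points, and the Nmrk1 points lie above those of the same lines in SL.

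Of the 10 genes Naprt had the largest change between media in chr8A and clone 2, and in clone 1 only the fitted change of Nmnat3, which rests on 1 read in SL2i, was as large. In chr8A its level was 46.8, 48.8 and 49.2 CPM in the 3 SL libraries and 5.22 and 4.84 CPM in the 2 SL2i libraries. Clone 1 had 58.0, 52.6 and 47.9 CPM in SL and 5.49 and 6.73 CPM in SL2i, and clone 2 had 52.8, 49.4 and 47.6 CPM in SL and 6.04 and 4.51 CPM in SL2i. Every SL library of each line was above every SL2i library of that line. Naprt fell by 3.26 ± 0.12 on the log2 scale in chr8A (log2 fold change ± SE, a 9.59-fold lower level, 95% interval 8.17 to 11.3; adjusted p = 3.66e-46, edgeR). It fell by 3.11 ± 0.11 in clone 1 and by 3.24 ± 0.12 in clone 2 (8.62-fold and 9.42-fold lower; adjusted p = 1.56e-45 and 2.12e-46). Of 17178 genes tested, 6.25% had a change in chr8A as low as or lower than that of Naprt. In bulk RNA, fewer cells of a type and less RNA per cell cannot be told apart.

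Naprt lies on chromosome 15, and 277 of its 2344 exon bases in the GENCODE annotation of GRCm38 overlap exons of Eef1d on the same strand. Reads from those bases cannot be assigned by position alone, and 10.3% of the 30-base words of Naprt transcripts are shared with other genes. Eef1d, a translation elongation factor subunit, stood at 359 ± 6.77 CPM in SL (n = 3) and 354 ± 11.3 in SL2i (n = 2) in chr8A, which differ by -0.02 ± 0.032 in log2 (adjusted p = 0.578, not past the threshold). In clones 1 and 2 Eef1d fell by 0.10 ± 0.033 and 0.07 ± 0.032 (adjusted p = 0.00506 and 0.0381).

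Nmrk1 rose where Naprt fell. Its level was 7.47, 6.91 and 7.32 CPM in the chr8A SL libraries and 20.3 and 16.2 CPM in SL2i. In clone 1 it was 6.61, 6.14 and 8.33 CPM in SL and 12.9 and 15.4 CPM in SL2i, and in clone 2 it was 6.76, 5.94 and 7.25 CPM in SL and 15.4 and 14.0 CPM in SL2i. The 2 media did not overlap in any line. The log2 change was 1.34 ± 0.13 in chr8A (2.52-fold, 95% interval 2.12 to 3.002), 1.01 ± 0.14 in clone 1 (2.02-fold) and 1.15 ± 0.13 in clone 2 (2.21-fold; adjusted p = 2.85e-17, 3.66e-10 and 5.69e-13). In chr8A 11.4% of genes tested had a change as high or higher.

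Nampt, the most abundant of the 10, fell less. The chr8A libraries had 264, 262 and 264 CPM in SL and 215 and 234 CPM in SL2i, clone 1 had 255 to 258 CPM in SL and 182 and 184 in SL2i, and clone 2 had 259 to 269 CPM in SL and 196 and 192 in SL2i. No library of one medium reached the range of the other within a line. The log2 change was -0.23 ± 0.035 in chr8A, -0.48 ± 0.037 in clone 1 and -0.45 ± 0.036 in clone 2 (adjusted p = 5.09e-09, 1.39e-22 and 2.96e-21). Thus the 3 genes that start salvage from nicotinamide, nicotinic acid and nicotinamide riboside moved by different amounts and in both directions.

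Set side by side per length, Nampt made up 66.1 ± 0.46% of the summed RPKM of Nampt, Naprt and Nmrk1 in chr8A in SL, Naprt 29.1 ± 0.615% and Nmrk1 4.78 ± 0.2% (n = 3). In SL2i the shares were 78.8 ± 3.29%, 4.26 ± 0.303% and 16.9 ± 2.99% (n = 2). The ratio of Naprt to Nmrk1 RNA was 6.10 ± 0.369 in SL and 0.254 ± 0.0269 in SL2i in chr8A, and ranged from 5.25 to 8.00 and from 0.294 to 0.399 over the libraries of the 2 clones. These are shares of transcripts, and enzyme amounts and fluxes were not measured.

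**Figure D2:**
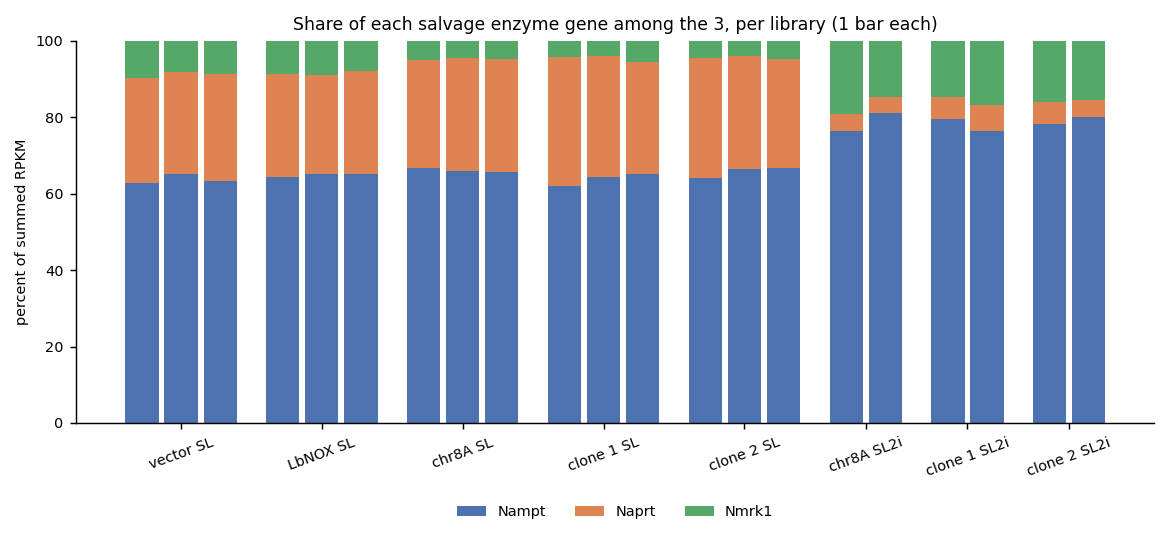
Percent of the summed RPKM of Nampt, Naprt and Nmrk1 taken by each gene, 1 stacked bar per library, grouped by line and medium. Naprt takes 25.7% to 33.9% of the bar in the SL libraries and 4.04% to 6.72% in the SL2i libraries, where Nmrk1 takes 14.8% to 19.0%.

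Nadsyn1, the glutamine-dependent NAD synthetase downstream of Naprt, did not fall with it. Its level in chr8A was 4.97, 5.75 and 4.94 CPM in SL and 8.41 and 6.32 CPM in SL2i, and the groups did not overlap. The log2 change was 0.50 ± 0.17 in chr8A and 0.57 ± 0.17 in clone 2, both of which passed (adjusted p = 0.00683 and 0.00212), and 0.28 ± 0.18 in clone 1, which did not (adjusted p = 0.162). The chr8A call ended without SL2i chr8A replicate 1 (0.26, adjusted p = 0.341). Counts were 59 to 87 reads per SL2i library.

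Of the 3 Nmnat genes, nuclear Nmnat1 fell in all 3 lines. It stood at 12.7 ± 1.12 CPM in SL (n = 3) and 9.82 ± 1.05 in SL2i (n = 2) in chr8A, and the log2 change was -0.37 ± 0.13 there, -0.57 ± 0.14 in clone 1 and -0.48 ± 0.13 in clone 2 (adjusted p = 0.00757, 0.000192 and 0.000513). The chr8A call ended without SL2i chr8A replicate 1 (-0.28, adjusted p = 0.134) and with all libraries thinned to 1 depth (-0.30, adjusted p = 0.0593). Other genes share 8.69% of the 30-base words of Nmnat1. Nmnat2 changed by 0.09 ± 0.065 in chr8A and 0.05 ± 0.069 in clone 1, which did not pass, and rose by 0.28 ± 0.067 in clone 2 (adjusted p = 0.000174), the line in which its SL level was lowest. Nmnat3 was near the limit of detection: 57 reads over 3 SL libraries and 8 over 2 SL2i libraries in chr8A, 27 and 1 in clone 1, and 48 and 2 in clone 2. After scaling for library size, SL exceeded SL2i by a ratio of 1.93 in chr8A (95% exact interval 0.919 to 4.70), 10.0 in clone 1 (1.65 to 410) and 6.36 in clone 2 (1.67 to 54), intervals that cover counting error only. Nmnat3 passed in both clones (adjusted p = 0.00827 and 0.00684), and each of these calls ended without 1 SL2i library (adjusted p = 0.13 without clone 1 replicate 2 and 0.145 without clone 2 replicate 1).

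Of the 2 NAD kinases, mitochondrial Nadk2 rose with SL2i in all 3 lines and cytosolic Nadk fell in 1. Nadk stood at 133 ± 3.77 CPM in SL and 131 ± 2.01 in SL2i in chr8A, a log2 difference of -0.02 ± 0.041 (95% interval -0.10 to 0.06; adjusted p = 0.703). It fell by 0.14 ± 0.042 in clone 1 (adjusted p = 0.0032), and its change of -0.07 ± 0.041 in clone 2 did not pass (adjusted p = 0.116), except without a count filter (-0.135, adjusted p = 0.00508). Across the alternatives other than leaving out 1 library, the Nadk value ranged from -0.08 to -0.015 in chr8A and -0.135 to -0.065 in clone 2. In clone 1 it ranged from -0.2 to -0.128, so changes this small depend on filter and scaling. Nadk2 had 73.8, 75.6 and 74.9 CPM in the chr8A SL libraries and 105 and 98.3 CPM in SL2i. It rose by 0.44 ± 0.048 in chr8A, 0.31 ± 0.051 in clone 1 and 0.32 ± 0.049 in clone 2 (adjusted p = 1.88e-14, 1.12e-07 and 5.74e-09), with no overlap between media in any line. The RPKM ratio of Nadk to Nadk2 was 2.15 ± 0.0774 in SL and 1.56 ± 0.0499 in SL2i in chr8A, and 2.27 to 2.45 and 1.70 to 1.77 over the libraries of the clones.

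Nnt, the transhydrogenase, moved opposite to Nadk2 although both proteins act on the mitochondrial NADP pool. It had 52.5, 50.6 and 53.2 CPM in the chr8A SL libraries and 31.5 and 35.7 CPM in SL2i. In clone 1 it had 51.3, 49.4 and 50.4 CPM in SL and 24.6 and 25.4 in SL2i, and in clone 2 it had 54.5, 53.7 and 49.8 CPM in SL and 26.3 and 23.1 in SL2i. In these lines all SL2i libraries were below all SL libraries. Nnt fell by 0.63 ± 0.069 in chr8A, by 1.01 ± 0.077 in clone 1 and by 1.09 ± 0.074 in clone 2 (1.55-fold, 2.02-fold and 2.12-fold lower; adjusted p = 3.49e-14, 1.32e-22 and 1.53e-25). A deletion in Nnt is known from one common laboratory mouse strain. Nnt reads, at 233 or more per library, were found in all 21 libraries. Counts per gene do not show which exons the reads came from, so the presence of this deletion was not tested.

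**Figure D3:**
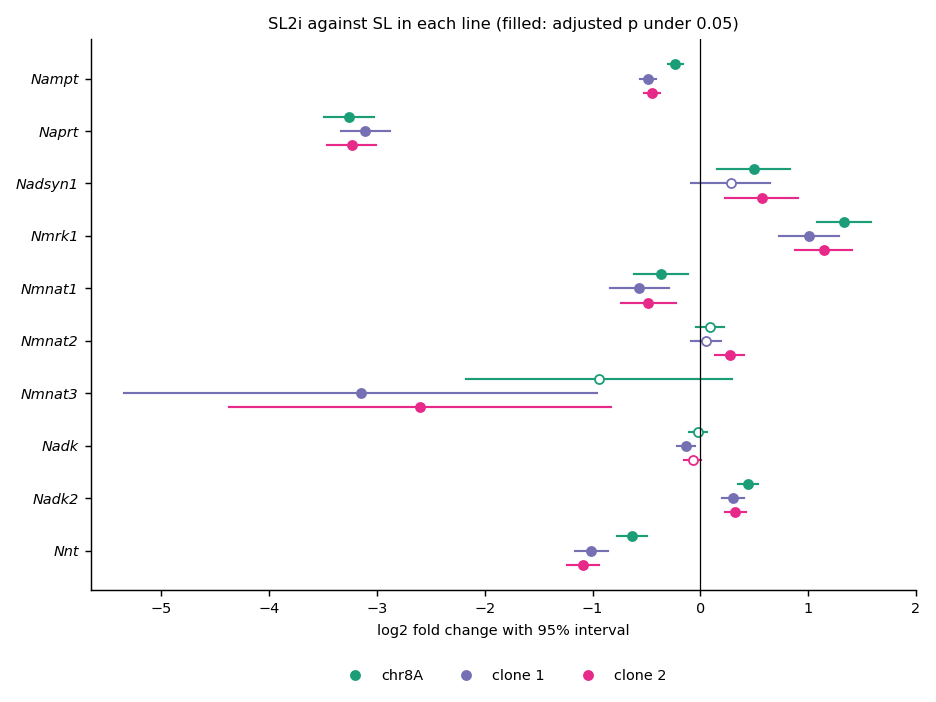
Log2 fold change of SL2i against SL with its 95% interval for each gene in chr8A, clone 1 and clone 2; filled points passed at an adjusted p under 0.05. Naprt lies near -3 in all 3 lines, Nmrk1 lies at 1.01 to 1.34, and the widest intervals belong to Nmnat3, which had 8 or fewer reads per line in SL2i.

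In all, 7 of the 10 genes passed between media in chr8A, of which 3 were higher and 4 lower in SL2i, where 72.8% of all genes passed (36.1% higher, 36.8% lower). In clone 1 the count was 8, with 2 higher and 6 lower, against 73.0% of all genes (35.9% higher, 37.1% lower). In clone 2 it was 9, with 4 higher and 5 lower, against 73.1% of all genes (35.8% higher, 37.2% lower). These shares are near the background. The median log2 change of the 10 genes was -0.13, -0.31 and -0.26, against medians of all genes of 0.00, 0.00 and -0.01. Summed levels of cell type markers differed between media as well. A sum follows its most abundant genes and can hide members that moved the other way. It is therefore not an amount of a cell type. Pdgfra counts in both the fibroblast and the primitive endoderm sum. The summed level of 10 ESC markers was 3715 to 3875 CPM in chr8A in SL and 7354 to 7441 CPM in SL2i, and that of 6 trophoblast markers was 678 to 702 and 71.99 to 79.98 CPM. For 10 fibroblast markers it was 44.5 to 49.1 and 11.9 CPM, with Col3a1, Dcn, Postn and S100a4 at 0 reads in SL2i, and for 8 primitive endoderm markers 25.0 to 27.6 and 5.41 to 6.62 CPM, with Foxa2 at 0 reads in SL2i. The 5 markers of 2-cell-like cells summed to 0.0388 to 0.156 CPM in SL and 9.87 to 10.1 CPM in SL2i. In the clones these sums were 3802 to 4022 and 7819 to 7980 CPM for ESC, 564 to 780 and 124 to 129 for trophoblast, 37.2 to 46.7 and 10.2 to 12.2 for fibroblast, 22.1 to 24.9 and 8.68 to 10.8 for primitive endoderm, and 0 to 0.287 and 6.54 to 10.9 for 2-cell-like markers. Col3a1, Dcn and Postn had 0 reads in SL2i in all 3 lines. The part of these cell types and of sequencing depth in the changes of the 10 genes was not tested, other than by thinning the libraries to 1 depth, where every called change that could be refitted kept its direction (Nmnat3 fell under the filter on low counts).

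**Figure D4:**
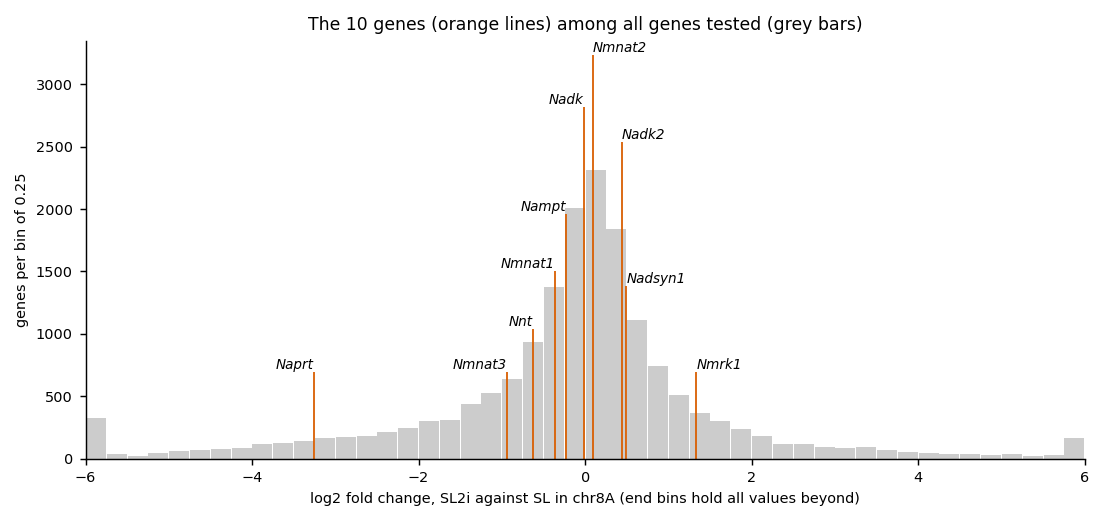
Distribution of the log2 fold change of SL2i against SL in chr8A over the 17178 genes tested (grey bars, 0.25 log2 per bin) with orange lines at the 10 genes; line height only separates the names. Naprt lies in the lower tail, with 6.25% of genes at or below it, and Nmrk1 in the upper part, with 11.4% at or above it.

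The clones were set against chr8A in SL to see which transcripts differ with the SLC16A1 label. In clone 1 none of the 10 genes passed (16.6% of all genes did; 2 of the 10 had an unadjusted p under 0.05, and DESeq2 called 0), and in clone 2 only Nmnat2 passed, lower than in chr8A (26.9% of all genes passed, 12.6% as lower). Nmnat2 had 47.3, 45.3 and 48.6 CPM in chr8A, 44.5, 40.4 and 44.4 CPM in clone 1 and 35.6, 40.2 and 37.3 CPM in clone 2. The libraries of the 3 lines did not overlap. Nmnat2 fell by 0.31 ± 0.051 in clone 2 (adjusted p = 5.39e-07), and the difference of -0.13 ± 0.052 in clone 1 did not pass (adjusted p = 0.0901). Clone 2 was also lower than clone 1, by 0.19 ± 0.054 on the log2 scale (adjusted p = 0.0251), where 4.40% of all genes passed (2.71% as lower), but this call ended without clone 1 replicate 1 (adjusted p = 0.161), clone 1 replicate 3 (0.144), clone 2 replicate 1 (0.141) or clone 2 replicate 3 (0.122).

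For the other abundant genes the intervals in SL were narrow. Nampt differed from chr8A by -0.04 ± 0.029 in clone 1 (95% interval -0.10 to 0.02) and 0.01 ± 0.029 in clone 2 (-0.05 to 0.06), and Nnt by -0.05 ± 0.05 and 0.01 ± 0.048. Naprt was 0.13 ± 0.054 higher in clone 1 (adjusted p = 0.0816), a difference that passed without clone 1 replicate 3 (0.20, adjusted p = 0.0159), and 0.04 ± 0.052 higher in clone 2 (adjusted p = 0.631). Nadk2 differed by -0.08 ± 0.041 and -0.03 ± 0.039, and Nadk by 0.04 ± 0.034 and 0.08 ± 0.032 (adjusted p = 0.206, 0.598, 0.459 and 0.0597). For Nmrk1, Nmnat1 and Nadsyn1 the differences were -0.12 to 0.03 with 95% intervals between -0.35 and 0.27, and for Nmnat3, with 27 to 57 reads per line, the intervals spanned -1.45 to 0.53.

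In SL2i both clones had less Nampt, Nnt and Nadk2 RNA than chr8A. These 3 genes, all lower, were the ones that passed in each clone, against 22.4% of all genes in clone 1 (12.1% as lower) and 20.6% in clone 2 (10.8% as lower). The 2 comparisons share the 2 chr8A libraries, so they are not independent of each other. Nampt had 215 and 234 CPM in chr8A, 182 and 184 CPM in clone 1 and 196 and 192 CPM in clone 2. It was lower by 0.29 ± 0.042 on the log2 scale in clone 1 and 0.21 ± 0.041 in clone 2 (log2 fold changes of -0.29 and -0.21; adjusted p = 1.22e-08 and 3.67e-05). Nnt, with 31.5 and 35.7 CPM in chr8A and 23.1 to 26.3 CPM in the clones, had log2 changes of -0.43 ± 0.094 and -0.44 ± 0.094 (adjusted p = 0.000201 and 0.000119). In both genes every clone library was below both chr8A libraries. Summed trophoblast markers were 71.99 to 79.98 CPM in chr8A and 124 to 129 CPM in the clones, and summed primitive endoderm markers 5.41 to 6.62 and 8.68 to 10.8 CPM, and their part in the result was not tested.

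Nadk2 had 105 and 98.3 CPM in chr8A, 85.2 and 89.9 in clone 1 and 90.2 and 92.9 in clone 2 in SL2i. Its log2 changes were -0.215 ± 0.057 (adjusted p = 0.00233) and -0.15 ± 0.056 (adjusted p = 0.0417). The clone 1 call ended without SL2i chr8A replicate 1 (adjusted p = 0.119) or clone 1 replicate 1 (0.0775). The clone 2 call ended under 6 alternatives, among them DESeq2 (adjusted p = 0.0714) and a fit of only the compared groups (0.0765).

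Nmrk1 was lower in both clones in SL2i by values that did not pass, -0.37 ± 0.14 in clone 1 (adjusted p = 0.0532) and -0.32 ± 0.14 in clone 2 (adjusted p = 0.105). Both passed without SL2i chr8A replicate 2 (adjusted p = 0.0218 and 0.0401), and the clone 1 value also passed at equal depth (-0.38, adjusted p = 0.0378). Naprt differed by 0.29 ± 0.21 and 0.07 ± 0.21, Nmnat1 by -0.28 ± 0.17 and -0.08 ± 0.16, Nmnat2 by -0.16 ± 0.079 and -0.13 ± 0.078, Nadk by -0.08 ± 0.049 and 0.03 ± 0.048, and Nadsyn1 by -0.23 ± 0.2 and -0.002 ± 0.2. None of these passed (adjusted p = 0.144 to 1). Nmnat3 had 8 reads in chr8A, 1 in clone 1 and 2 in clone 2, ratios of chr8A to clone of 7.71 (95% exact interval 1.03 to 342) and 4.01 (0.8 to 38.7). In SL2i none of the 10 genes passed between clone 2 and clone 1 (0.157% of all genes did; 1 of the 10 had an unadjusted p under 0.05, and DESeq2 called 0).

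**Figure D5:**
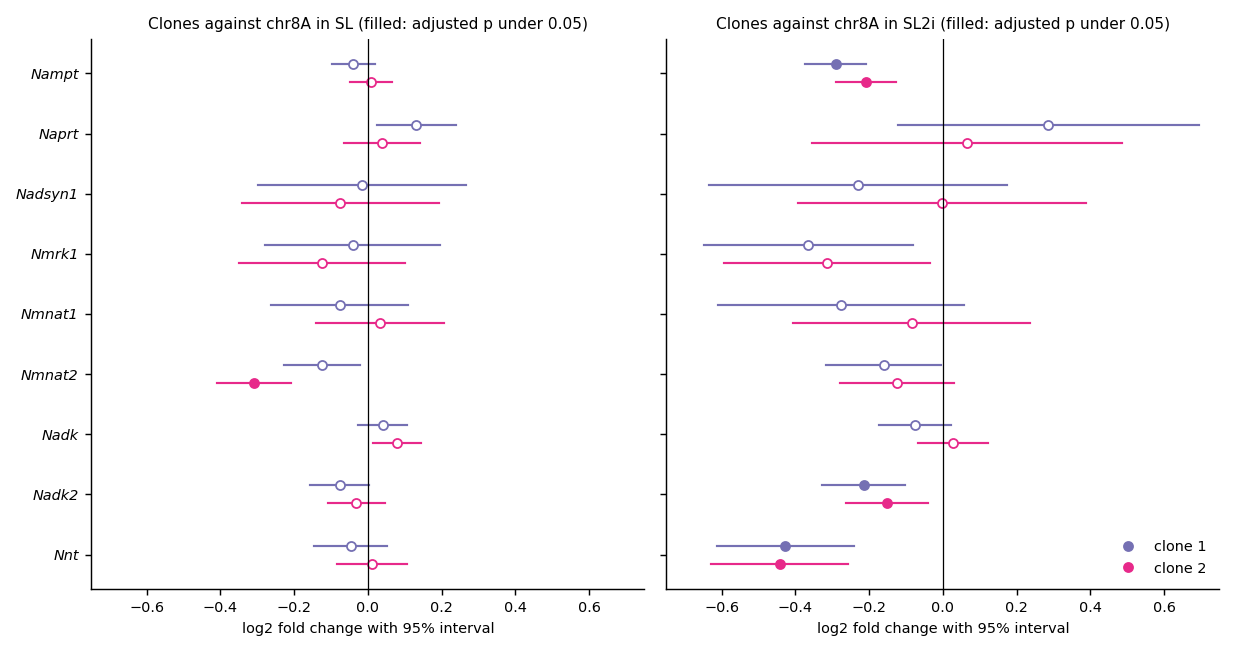
Log2 fold change of each SLC16A1 clone against chr8A with its 95% interval in SL (left) and SL2i (right); filled points passed at an adjusted p under 0.05, and Nmnat3 is left out because its intervals exceed the axis. In SL only Nmnat2 in clone 2 is filled, and in SL2i Nampt, Nadk2 and Nnt are filled in both clones, all below 0.

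Whether the response to medium differed between lines was tested as an interaction. It passed for Nampt and Nnt in both clones and for none of the other 8 genes, where 17.0% of all genes passed for clone 1 (9.24% with a negative value) and 16.9% for clone 2 (9.18%). Nampt fell more with SL2i in the clones than in chr8A, with a log2 difference of differences of -0.25 ± 0.051 in clone 1 (adjusted p = 7.55e-05) and -0.215 ± 0.05 in clone 2 (adjusted p = 0.000701). For Nnt the values were -0.38 ± 0.11 (adjusted p = 0.00607) and -0.45 ± 0.11 (adjusted p = 0.000648). All 4 values rest on the same 2 chr8A libraries in SL2i. Without SL2i chr8A replicate 2 the clone 1 call for Nnt ended (-0.28, adjusted p = 0.143), as did the clone 2 call for Nampt (-0.14, adjusted p = 0.0779).

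LbNOX was set against vector to see which transcripts differ with the LbNOX label. Whether LbNOX was expressed or oxidized NADH in these cells was not tested. None of the 10 genes passed, and none had an unadjusted p under 0.05 (0.0372% of 16119 genes passed; DESeq2 called 0 of the 10). Nampt had 211, 219 and 209 CPM in vector and 213, 214 and 229 CPM in LbNOX cells, a log2 difference of 0.04 ± 0.043 (95% interval -0.06 to 0.13). Nnt had 40.1, 41.4 and 37.8 CPM in vector and 41.5, 37.0 and 37.5 in LbNOX cells, a difference of -0.04 ± 0.067 (-0.19 to 0.10). For Naprt the difference was -0.04 ± 0.062 (-0.18 to 0.09), for Nadk -0.04 ± 0.045 (-0.13 to 0.06) and for Nadk2 -0.08 ± 0.067 (-0.23 to 0.07). Vector and LbNOX libraries overlapped for all 10 genes.

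The wider intervals belonged to genes with fewer reads. Nmnat2 differed by -0.06 ± 0.057, Nmnat1 by 0.08 ± 0.096, Nmrk1 by -0.04 ± 0.1 and Nadsyn1 by 0.16 ± 0.18, whose 95% interval of -0.23 to 0.54 was the widest after that of Nmnat3 (0.30 ± 0.52, with 25 reads in vector and 39 in LbNOX libraries). Without the pair of libraries that lay apart, an alternative added once the data had been seen, 49 genes passed, again with none of the 10. In simulated libraries of this comparison, 200 genes were changed. Of those changed 1.2-fold 28.9% were recovered, of those changed 1.5-fold 67.3% and of those changed 2-fold 93.5%. The simulated libraries were drawn independently, without the shared shift of the pair that lay apart. The changed genes were picked from all genes above 1 CPM. These recoveries therefore do not describe the 10 genes in the real libraries.

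Genes with levels most like those of Naprt, Nmrk1 and Nnt were found by Pearson correlation of log2 CPM over the 15 libraries of the second table, among 9928 candidates with a mean of at least 3 on that scale. These 3 genes had the widest range of group means (3.36, 1.44 and 1.09) among the genes of the 10 above that level, which leaves out Nmnat3 (range 2.41) and Nadsyn1. These libraries differ chiefly by medium (86.4% of variance lies on the first principal component, which separates SL from SL2i), so the values describe that split. Closest to Naprt were Akt1, Kif1a and Lrrn4 (r = 0.998 each), which within the 9 SL libraries alone had r of 0.153, 0.247 and 0.722, and within the 6 SL2i libraries 0.971, 0.867 and 0.734. Closest to Nmrk1 were Slc6a6, Pgm3 and Ppip5k1 (0.984, 0.984 and 0.982), with 0.842, 0.6 and 0.728 within SL and 0.795, 0.916 and 0.842 within SL2i. Closest to Nnt were Armcx2, Spata13 and Nphs1 (0.994, 0.994 and 0.993), with 0.364, 0.408 and 0.286 within SL and 0.963, 0.965 and 0.984 within SL2i.

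The genes around the 10 were followed through 4 lists, whose counts stand beside the share of all genes that passed. Of 20 NAD consumers and turnover genes, 11 were higher and 5 lower in SL2i than in SL in chr8A, where 36.1% of all genes were higher and 36.8% lower (72.8% in all). Among them Cd38 and Bst1, which encode related cell surface enzymes that cleave NAD, rose by 2.75 ± 0.11 and 3.58 ± 0.26 on the log2 scale, and Tnks2, a tankyrase, fell by 0.46 ± 0.032 (adjusted p = 1.31e-38, 4.6e-24 and 1.51e-25). Other genes share 5.09% of the 30-base words of Bst1. The list's median was 0.26, against 0.00 for all genes. In the clones in SL, 1 gene of this list was higher and 1 lower in clone 1, and 2 were higher and 3 lower in clone 2. Of all genes 16.6% and 26.9% passed, with 12.6% as lower in clone 2. Nudt12, a peroxisomal NADH and NADPH pyrophosphatase, was higher by 1.03 ± 0.13 and 0.95 ± 0.13 in clones 1 and 2, and Parp1, the main poly(ADP-ribose) polymerase, had changes of -0.16 ± 0.029 and -0.13 ± 0.028 (adjusted p = 1.01e-09, 1.68e-09, 7.09e-06 and 0.000159). For Nudt12, 6.96% of words are shared with other genes. Sirt4, a mitochondrial sirtuin, fell by 0.33 ± 0.1 in clone 2 (adjusted p = 0.0109).

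Of 19 genes of NAD precursor supply and the tryptophan route, 14 were tested between media, and 5 were higher and 9 lower in chr8A (72.8% of all genes passed). Nnmt, which methylates nicotinamide and so withdraws it from salvage, rose by 5.42 ± 0.33 on the log2 scale, and Ido2, a tryptophan dioxygenase, rose by 4.33 ± 0.2 (adjusted p = 1.76e-29 and 2.33e-36). Nnmt did not pass the filter on low counts in the LbNOX table, where all libraries are in SL. It may have passed here only through the SL2i libraries, so the size of its rise is uncertain. Slc29a1, an equilibrative nucleoside transporter, rose by 0.67 ± 0.042 (adjusted p = 7.42e-27; 5.04% shared words). The list's median was -0.41. In SL 2 of them were higher and 0 lower in clone 1, while clone 2 had 5 that were higher and 2 that were lower. Of all genes 16.6% and 26.9% passed, with 12.6% as lower in clone 2. Nt5e, a cell surface nucleotidase, rose by 0.70 ± 0.068 in clone 1 and 0.38 ± 0.067 in clone 2, and Slc7a5, a carrier of large neutral amino acids, rose by 0.18 ± 0.033 and 0.16 ± 0.032 (adjusted p = 1.61e-14, 4.01e-06, 5.95e-05 and 0.000126). Pnp, purine nucleoside phosphorylase, rose by 0.15 ± 0.036 in clone 2 (adjusted p = 0.000678; 26.7% shared words).

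All 15 tested genes of 16 for NADPH sources and NADP turnover passed between media in chr8A, 8 higher and 7 lower, with a median of 0.11 (72.8% of all genes passed). Idh2, the mitochondrial NADP-dependent isocitrate dehydrogenase, rose by 1.42 ± 0.037, Aldh1l1, a cytosolic folate enzyme that yields NADPH, rose by 3.27 ± 0.11 (11.4% shared words), and Noct, an NADP(H) phosphatase, fell by 1.51 ± 0.06 (39.3% shared words; adjusted p = 4.88e-59, 1.39e-48 and 4.94e-39). In SL clone 1 had 2 higher and 4 lower, and clone 2 had 4 that were higher and 6 that were lower. Of all genes 16.6% and 26.9% passed, with 12.6% as lower in clone 2. Mthfd1, Idh2 and Idh1 were lower in both clones, with changes of -0.20 ± 0.027, -0.25 ± 0.036 and -0.22 ± 0.033 in clone 1 and -0.20 ± 0.027, -0.31 ± 0.034 and -0.30 ± 0.032 in clone 2 (adjusted p from 1.09e-12 to 8.88e-08).

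Of 12 genes listed for thiol defence, not all of which use NADPH themselves, 9 were higher and 2 lower in SL2i in chr8A. The list's median was 0.24, and of all genes 36.1% were higher and 36.8% lower (72.8% in all). Gpx4, the lipid peroxide reductase, rose by 2.86 ± 0.054, but 39.2% of its words are shared with other genes, so its counts are uncertain. Nqo1, a quinone reductase, rose by 1.69 ± 0.06, and Txnrd1, cytosolic thioredoxin reductase, fell by 1.01 ± 0.034 (adjusted p = 2.14e-72, 6.15e-47 and 8.92e-50). In SL clone 1 had 1 that was higher and 1 that was lower, and clone 2 had 6 that were higher and 0 that were lower. Of all genes 16.6% and 26.9% passed, with 12.6% as lower in clone 2. Gpx1, a glutathione peroxidase, rose by 0.45 ± 0.056 in clone 1 and 0.47 ± 0.055 in clone 2 (adjusted p = 5.87e-05 and 1.7e-05), Gpx4 fell by 0.17 ± 0.063 in clone 1 (adjusted p = 0.0496), and Prdx1 (15.9% shared words) and Txn2 rose by 0.13 ± 0.028 and 0.14 ± 0.035 in clone 2 (adjusted p = 0.000225 and 0.00168). Between LbNOX and vector no gene of the 4 lists passed, where 0.0372% of 16119 genes did, so this count is near the background.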

How the data were processed

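Poly(A) RNA of 21 mouse ESC libraries was sequenced from stranded TruSeq libraries, per the labels' protocols. Reads were processed with DRAGEN 3.10, featureCounts of Subread and build GRCm39, per the submitters' processing notes; for strand and overlap settings the sources used here give nothing. The authors deposited 2 tables of raw counts per gene, without normalization, which limits low genes to counting precision. Library totals were 16521594 to 30008895 counts (LbNOX table), 15802072 to 30145771 (SL) and 9784408 to 10908368 (SL2i).

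Each table was filtered (filterByExpr), TMM-normalized and fitted separately with edgeR 4.0.16 (R 4.3.3; quasi-likelihood test, robust, Benjamini-Hochberg adjustment over all genes tested, threshold 0.05); all 6 or 15 libraries shared 1 fit. Standard errors are the log2 fold change divided by the root of F. RPKM used the deposited gene length. DESeq2 1.42.0, other normalizations and filters, left-out libraries and equal depth were alternatives. Replicate numbers were used to pair libraries only in an alternative (same-number correlation over 0.1 in 0 of 33 pairs of the chr8A table and 1 of 3 of the LbNOX table). On simulated counts with 200 changed genes the fit between media in chr8A recovered 78.1% of genes changed 1.5-fold and 38.3% changed 1.2-fold. In the real libraries 72.8% of genes passed between media, a setting that was not simulated, so these recoveries do not describe that comparison. All 10 genes are described in every comparison; from each of 4 pathway lists up to 3 passing genes with the smallest adjusted p are named, and likeness is by Pearson correlation. Exon overlap and shared 30-base words were computed on GRCm38, not the build of the counts, and describe sequence only. The genes and lists were chosen with earlier results of these data known.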

Additional observations from a re-analysis of the deposited data

Results flagged for a closer look

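The response to SL2i differed between chr8A and the clones for 2 of the 10 genes, by the interaction test of edgeR. Of all genes, 17.0% passed this test for clone 1 and 16.9% for clone 2, so the count is near the background. For Nampt the log2 difference of differences was -0.251 in clone 1 and -0.215 in clone 2 (adjusted p = 7.55e-05 and 0.000701), and for Nnt it was -0.38 and -0.454 (adjusted p = 0.00607 and 0.000648). In SL the Nampt libraries of clone 1 lay below those of chr8A, and those of clone 2, like the Nnt libraries of both clones, overlapped with chr8A. In both genes the SL2i libraries of the clones were all lower than those of chr8A. All 4 values share the 2 chr8A libraries in SL2i, and without replicate 2 of these the Nnt value in clone 1 was -0.275 (adjusted p = 0.143) and the Nampt value in clone 2 was -0.142 (adjusted p = 0.0779).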

How the results depend on the processing

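Over all 10 genes and 12 comparisons, 425 of the alternative values of called changes kept their call, 19 lost it and 0 changed sign; of changes that were not called, 1017 stayed so, 5 were called and 48 changed sign. None of the values that changed sign was called. Of these, 18 belonged to clone 2 against clone 1 or to the interactions (-3.072 to 0.073; 17 with 1 library left out and 1, for Nadsyn1, at equal depth). The other 30 follow. They were Nmnat2 between media in clone 1 without a count filter (-0.01), Nampt in clone 2 in SL with a filter at 1 CPM (-0.002) and Nnt under LbNOX without the 2 libraries that lay apart (0.002). With all libraries thinned to 1 depth these were Nadsyn1 (0.041), Nmrk1 (0.103) and Nmnat1 (0.075) in clone 1 in SL, Nadsyn1 (0.038) and Nnt (-0.054) in clone 2 in SL, and Nadsyn1 in clone 2 in SL2i (0.027). Leaving out 1 library at a time gave ranges across 0 for Nadsyn1 (-0.069 to 0.061) and Nmrk1 (-0.18 to 0.041) in clone 1 in SL; for Nampt (-0.011 to 0.021), Nmnat1 (-0.049 to 0.078), Nmnat3 (-0.527 to 0.085) and Nnt (-0.017 to 0.047) in clone 2 in SL; for Nadsyn1 (-0.189 to 0.221), Naprt (-0.158 to 0.268) and Nmnat1 (-0.217 to 0.037) in clone 2 in SL2i; for Nmnat2 between media in clone 1 (-0.002 to 0.09); and for Nmrk1 under LbNOX (-0.101 to 0.037). With 1 library left out, the count of the 10 genes called ranged from 0 to 1 for clone 1 in SL and for clone 2 against clone 1 in SL, from 1 to 2 for both interactions, from 2 to 4 for each clone in SL2i, and from 5 to 7, 7 to 8 and 8 to 9 between media in chr8A, clone 1 and clone 2 (up to 10 in clone 2 without a count filter). Counts over all genes moved with the settings as well. For clone 1 in SL, 2121 of 17059 genes passed without clone 1 replicate 3, against 2850 of 17178 with all libraries. The cause of these differences was not tested. A lone SL2i library left by such a fit is assumed to vary like the other groups.

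With the replicate number as a block, all 120 gene values kept their sign and side of the threshold, and the 12 counts of the 10 genes were as without the block; libraries with 1 number did not deviate together. Among all genes, LbNOX called 6 by edgeR, 24 without a filter, 15 by DESeq2, 3 with the replicate block, 49 without the 2 libraries that lay apart and 0 to 13 with 1 library left out. At equal depth, clone 1 in SL called 1823 genes in place of 2850 and clone 2 in SL 2941 in place of 4618. Clone 2 against clone 1 called 756 in SL (487 by DESeq2, 1223 from the compared groups only, 458 at equal depth, as few as 371 with 1 library left out) and 27 in SL2i (43 by DESeq2, 11 from the compared groups only, as few as 16 with 1 library left out). Depth limits Nmnat3 in all groups, and Nadsyn1 and Naprt in SL2i, most. Of 80 group levels in CPM, 21 moved by their SD or more without normalization factors, and 2 did with RLE factors, another normalization. In the chr8A table TMM factors were 1.016 to 1.037 in SL and 0.9556 to 0.9774 in SL2i, so scaling differed with medium.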
